A study of Mus musculus with 55 samples.

Results

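DNMT3A is a de novo DNA methyltransferase and DNMT3L is its catalytically inactive partner, and in growing mouse oocytes the complex lays down the CG methylation of the maternal genome, maternal imprints included. Both proteins carry an ADD domain, which binds the tail of histone H3 when lysine 4 bears no methyl group and so keeps the complex away from active promoters. The comparison here was between fully grown oocytes (FGOs, the last stage before meiosis resumes) of 2 genotypes, and it asked what the Dnmt3L mutation adds where the ADD domain of DNMT3A is already mutated.

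The 2 groups were chosen by genotype from the sample titles: 8 double mutant FGO libraries against 8 Dnmt3a-ADD FGO libraries, 16 of the 55 samples of the series. The double mutant was homozygous for both alleles (labelled Dnmt3aADA/ADA + Dnmt3LD124A/D124A), and the Dnmt3a-ADD group carried the same Dnmt3a allele with wild-type Dnmt3L (labelled Dnmt3aADA/ADADnmt3L+/+), so that every oocyte in the comparison was mutant for Dnmt3a. Both alleles are germline substitutions made with CRISPR-Cas9, and the mice therefore carried them in every tissue, ovarian somatic cells included. Oocytes came from ovaries of females 10 to 12 weeks old by puncture with needles, cumulus cells were washed off, and each SMART-Seq HT library was made from a single oocyte. The labels do not say which oocytes shared a mother, and the p-values therefore measure the spread between libraries. The fit also held 18 wild-type and 8 Dnmt3L-ADD FGO libraries, which share its estimate of the spread.

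The designed oligonucleotides show how small the change between the 2 groups is. The donors are printed 5′ to 3′ in lower case, and capitals mark bases that differ from the transcript of the same gene. Differences were marked from base 5 of the Dnmt3a donor and base 23 of the Dnmt3L donor, where the match to the transcript begins. Earlier bases were left in lower case.
Dnmt3a donor: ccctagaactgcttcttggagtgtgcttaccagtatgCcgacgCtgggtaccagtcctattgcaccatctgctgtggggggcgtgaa
Dnmt3L donor: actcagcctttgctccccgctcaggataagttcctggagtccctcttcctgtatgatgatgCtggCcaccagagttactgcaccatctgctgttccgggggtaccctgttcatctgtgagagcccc
Counted from the first base of each donor, the Dnmt3a donor held A38C and A44C, and the Dnmt3L donor, whose change only the double mutant of these 2 groups carries, held A62C and A66C, with D124A as the protein change that the label gives. The Dnmt3L locus was cut with a pair of guides.
Dnmt3L guide 1: ggtgtccatcatcatcatac
Dnmt3L guide 2: ctcttcctgtatgatgatga
Counts per gene carry no base calls, and the substitutions themselves could not be read from the data.

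Transcripts of both targeted genes were read in every library. Dnmt3a (chromosome 12, 3806007 to 3914443 in mm10) was read at 304 to 358 CPM (counts scaled to the library's size) with a median of 324 in Dnmt3a-ADD FGOs, and at 285 to 351 with a median of 299.7 in double mutant FGOs. Dnmt3l (chromosome 10, 78041947 to 78063622) was read at 118 to 139.7 CPM (median 131) and at 81.4 to 137 CPM (median 123). Both ranges overlapped. The log2 fold change, double mutant over Dnmt3a-ADD, was -0.07 ± 0.06 (SE) for Dnmt3a (adjusted p = 0.393) and -0.15 ± 0.11 for Dnmt3l (adjusted p = 0.329, both edgeR quasi-likelihood test).

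The libraries held 9250950 to 18909786 counts in Dnmt3a-ADD and 12090966 to 16328967 in double mutant FGOs, and the difference of the means was within the spread between libraries (exact permutation test, two-sided, adjusted p = 0.960 over the 2 measures tested). Genes with at least 1 count numbered 21819 ± 2169 (SD, n = 8) and 21786 ± 399 (adjusted p = 0.967, exact permutation test). Mitochondrially encoded genes were at 0 in every library, so their share could not be tested. All 10 oocyte markers, among them Gdf9, Zp1, Zp2 and Zp3, were read in all 16 libraries, the lowest at 17.4 CPM for Figla. The libraries stood apart in another respect, which touches every count below. All 8 double mutant libraries had under 80% of their reads mapped, against 3 of the 8 Dnmt3a-ADD libraries, and the wild-type libraries were of both kinds, 8 under 80% and 10 at or above it. Wild-type libraries of the first class differed from those of the second at 701 genes, 578 higher and 123 lower, by the limits used for the mutants. The class rests on the mapped-read numbers that the study gives. In double mutant libraries 1, 2, 3, 4 and 6 and Dnmt3a-ADD library 1, the counts summed to more than that number. So did those of wild-type libraries 4, 9, 10, 11, 12, 14, 15 and 17, and the reason was not tested.

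Of 15726 genes tested, 921 differed over 2-fold with an adjusted p under 0.05, which is 5.86% of them, and 30.9% passed on the adjusted p alone. In double mutant FGOs 689 genes were higher (4.38%) and 232 were lower (1.48%), and without Dnmt3a-ADD replicate 8 the lower genes numbered 152. With the class of mapped reads as a covariate, 168 were higher and 238 lower. With libraries under 80% only, 8 double mutant against 3 Dnmt3a-ADD, 685 were higher and 121 lower. The 3 Dnmt3a-ADD libraries under 80% themselves differed from the 5 others at 2 genes. Among the 689 higher genes, 662 (96.1%) also had a higher estimate in wild-type libraries under 80% than in those at or above it, 338 of them with an adjusted p under 0.05. Among the 232 lower genes 104 (44.8%) had the same sign in that wild-type comparison, and 21 of these passed. Over all 15726 genes, 2365 were higher and 1989 lower by the adjusted p in that comparison, with a median log2 fold of 0.04.

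Each mutant was then set against the wild-type libraries of its own class (8 double mutant less 8 wild type under 80%, and 5 Dnmt3a-ADD less 10 wild type at or above 80%), a comparison added after the data were seen. By this within-class difference 86 genes were called, 21 higher and 65 lower in the double mutant, and they held 8 of the 689 and 45 of the 232. Against the wild-type libraries of their own class, double mutant FGOs were higher over 2-fold at 4 of the 689 genes and lower at 93 of the 232. Most of the genes called higher were therefore not called above wild type in the double mutant, while many of those called lower were below wild type. No double mutant library was at or above 80%, so the double mutant met Dnmt3a-ADD libraries of its own class only in the comparison above with 3 of them. Beyond these values, the part of library class in the higher calls was not tested.

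**Figure D1:**
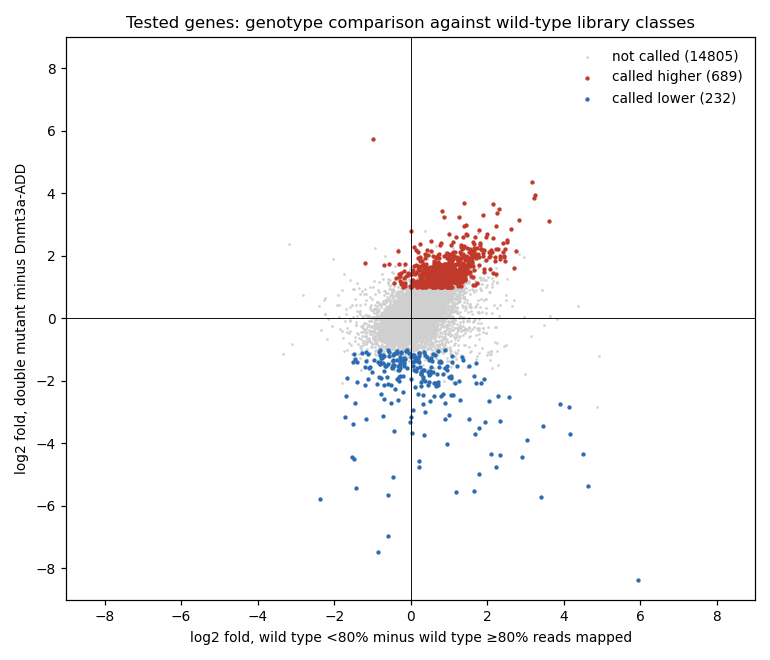
Each point is 1 of 15726 tested genes, with the log2 fold between the wild-type library classes (under 80% less at least 80% of reads mapped) on the horizontal axis and the log2 fold of double mutant over Dnmt3a-ADD FGOs on the vertical axis. The 689 genes called higher (red) lie almost all to the right of 0, and the 232 called lower (blue) lie on both sides.

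Across the 15726 genes the 2 log2 fold changes of this plot, which share no library, had a Pearson correlation of 0.367 and a Spearman correlation of 0.519. Genes are not independent replicates, and the values describe these libraries.

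Transcripts of most genes for secreted and coat proteins of the oocyte were higher in the double mutant by the adjusted p, by less than 2-fold. Of 14 tested members of the list of zona and oocyte secreted factors, 11 were higher with an adjusted p under 0.05 and none lower (16% and 14.9% of all tested genes), and the median log2 fold was 0.46 against 0.01 over all genes. Within classes 2 of the 14 were higher by the adjusted p (78 of all 15726 genes), and the median was 0.18. In 8 of the 14 no double mutant library overlapped a Dnmt3a-ADD library (1.96% of all genes did so in that direction). Zp2, which codes for a protein of the zona pellucida that sperm bind, was read at 787 to 1112 CPM (median 873) in Dnmt3a-ADD and at 1459 to 2040 CPM (median 1649) in double mutant FGOs. No Zp2 value of either group fell within the range of the other. The log2 fold of Zp2 was 0.88 ± 0.12 (adjusted p = 3.12e-06, edgeR). Wild-type Zp2 ran from 795 to 2014 CPM under 80% and from 1113 to 1335 at or above it, and the double mutant differed from wild type of its class by 0.14 on the log2 scale (adjusted p = 0.66). The within-class log2 difference for Zp2 was 0.59 with an adjusted p of 0.0688.

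Gdf9, an oocyte growth factor that acts on granulosa cells, passed the within-class test as well. It was read at 1492 to 2025 CPM (median 1598) in Dnmt3a-ADD and at 2213 to 2365 CPM (median 2319) in double mutant FGOs. The groups did not overlap, and the log2 fold was 0.45 ± 0.06 (adjusted p = 2.51e-06). The within-class log2 difference was 0.58 (adjusted p = 0.000192). Gdf9 was lower in Dnmt3a-ADD than in wild-type FGOs at or above 80%, by a log2 of -0.43 (adjusted p = 3.1e-05), and in the double mutant it did not differ from wild type under 80% beyond the test's limit (log2 0.16, adjusted p = 0.182).

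Bmp15, the X-linked partner of Gdf9, was read at 1230 to 1693 CPM in Dnmt3a-ADD and at 1970 to 2358 CPM in double mutant FGOs, again with no overlap. Its log2 fold was 0.64 ± 0.08 (adjusted p = 1.56e-06), and 0.41 within classes (adjusted p = 0.0507). The coat genes Zp1 and Zp3 were higher by a log2 of 0.55 and 0.61. Within classes Zp3 kept an adjusted p of 0.046 (log2 0.43) and Zp1 had 0.0966 (log2 0.40). The members Zp1, Zp2 and Zp3 were picked out after their values were seen.

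The promoter table from RefSeq (build GRCm38.p6, a window from upstream to just after each start) held Zp3 and Bmp15 of these genes. They are shown as 2 of the genes that were higher in the double mutant without overlap, with capitals for the E-box CACCTG on either strand.
Zp3, chr5:135979855-135980154, plus strand: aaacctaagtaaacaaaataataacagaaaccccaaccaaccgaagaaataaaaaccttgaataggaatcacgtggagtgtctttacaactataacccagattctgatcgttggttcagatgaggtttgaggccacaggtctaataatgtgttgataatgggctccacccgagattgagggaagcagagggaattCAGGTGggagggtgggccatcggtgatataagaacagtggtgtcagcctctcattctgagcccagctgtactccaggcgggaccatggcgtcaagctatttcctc
Bmp15, chrX:6320675-6320974, minus strand: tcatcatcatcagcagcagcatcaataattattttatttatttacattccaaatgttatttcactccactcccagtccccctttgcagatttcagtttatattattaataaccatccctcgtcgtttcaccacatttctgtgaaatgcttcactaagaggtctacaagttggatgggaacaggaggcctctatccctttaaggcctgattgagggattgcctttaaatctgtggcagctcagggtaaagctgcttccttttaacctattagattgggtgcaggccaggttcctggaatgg
The E-box was found in 4 of the 9 list members with a window, and in 19.1% of the 10853 tested genes with one. Promoters of genes called lower held a median of 12.5 CG pairs, against 21 for genes called higher and 20 over all tested genes with a window. These are descriptions of letters in a window.

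**Figure D2:**
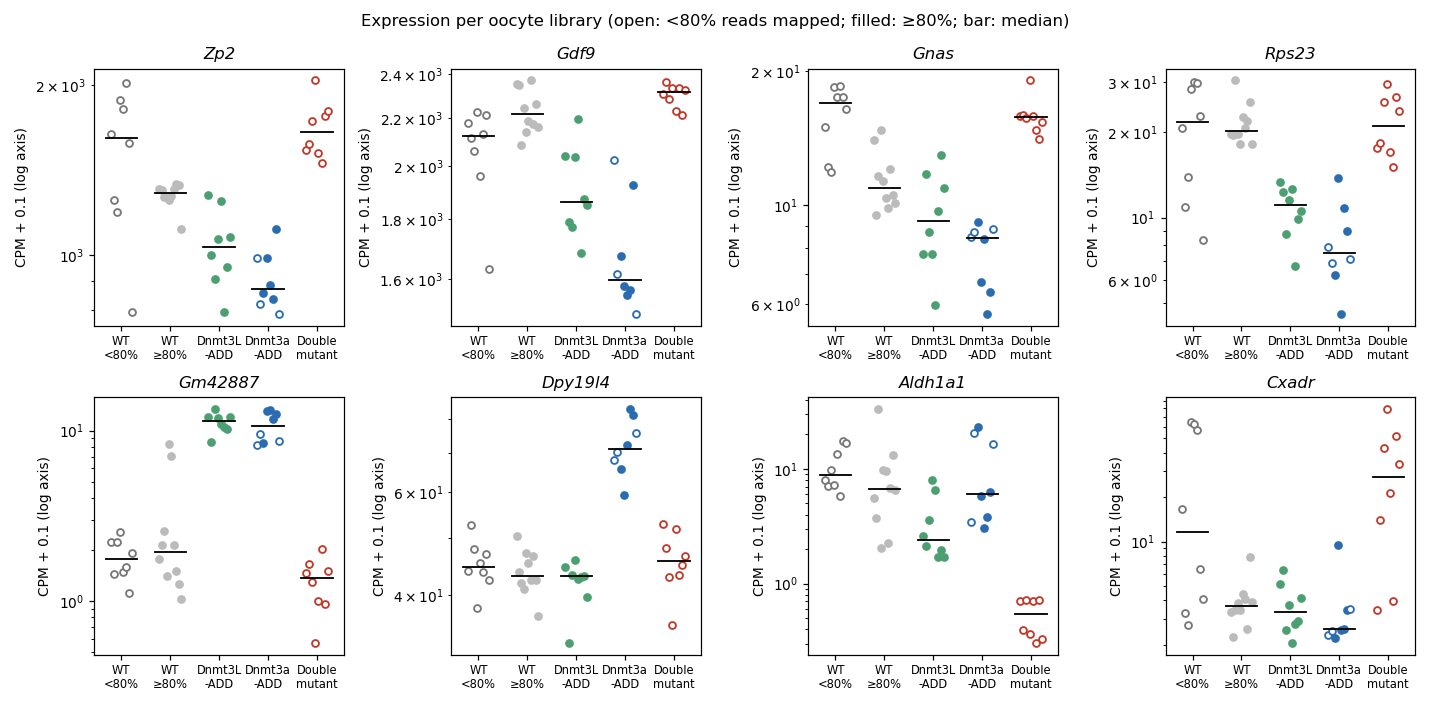
CPM (plus 0.1, log axis) of 8 genes in each oocyte library, with wild type split by class of mapped reads and bars at the medians. Zp2, Gdf9, Gnas and Rps23 are lowest in Dnmt3a-ADD by median, Dpy19l4 is highest there, Gm42887 is high in both single mutants, Aldh1a1 is lowest in the double mutant, and Cxadr spreads widely in the double mutant and in wild type under 80%, but not in the 3 Dnmt3a-ADD libraries under 80%.

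The list of the subcortical maternal complex and other maternal effect genes, maternal Nlrp genes included, had 9 of 16 tested members higher and none lower at an adjusted p under 0.05 (16% and 14.9% of all genes). The other 7 did not pass, and the median log2 was 0.20. Within classes 2 of the 16 were higher by the adjusted p (78 of all 15726 genes), and the median was 0.12. Nlrp14, a maternal NLR family gene, was read at 1528 to 1988 CPM in Dnmt3a-ADD and at 2434 to 3195 CPM in double mutant FGOs, with no overlap and a log2 fold of 0.62 ± 0.09 (adjusted p = 1.42e-05). Its within-class log2 difference was 0.34 (adjusted p = 0.169). Zbed3, a scaffold of the complex, overlapped between groups and had a log2 fold of 0.23 (adjusted p = 0.0323). Tle6, a core member, was read at 1126 to 1442 CPM against 1308 to 1484 CPM with overlap, and its log2 difference was 0.18 (adjusted p = 0.00372) and 0.33 within classes (adjusted p = 0.00254). Tle6 was named after its values were seen.

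Among 12 oocyte transcription factors 4 were higher and 1 lower by the adjusted p (33.3% and 8.33%, against 16% and 14.9% of all genes), and over 2-fold 1 was higher and none lower. Tbpl2, the oocyte-specific TBP relative, was read at 5.94 to 12.6 CPM in Dnmt3a-ADD and 13.7 to 40.2 CPM in double mutant FGOs. The groups did not overlap, with a log2 fold of 1.28 ± 0.27 (adjusted p = 0.000674). Wild-type libraries under 80% ran from 12.9 to 37.5 CPM for Tbpl2 and the others from 9.83 to 14.3, and the within-class log2 difference was 0.34 (adjusted p = 0.688). Pou5f1 (Oct4), named after its values were seen, was lower in every double mutant library, at 93.7 to 132 CPM against 144 to 171 CPM. Its log2 fold was -0.52 ± 0.09 (adjusted p = 4.08e-05), and -0.48 within classes (adjusted p = 0.0428). Dnmt3L-ADD FGOs held a median of 146 CPM of Pou5f1.

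Gm6682 had the smallest p among the genes called higher. This processed pseudogene on chromosome 12 was read at 0 to 0.404 CPM in Dnmt3a-ADD and 1.77 to 3.24 CPM in double mutant FGOs, without overlap. The log2 fold was 3.23 ± 0.41 (adjusted p = 1.17e-06), and 2.51 within classes (adjusted p = 0.00847). Its sequence is shared with 5 other annotated genes, among them Tuba1c and Tuba1b, which code for alpha-tubulin, so that reads could be assigned to either. Tuba1c itself was read at 16 to 30.8 CPM against 40.7 to 63.6 CPM, with a log2 fold of 1.18 ± 0.17 (adjusted p = 1.26e-05) and 0.77 within classes (adjusted p = 0.11).

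Rps23, a protein of the small ribosomal subunit, and Lsm8, of the nuclear LSM ring that holds U6 snRNA, kept their calls within classes. Rps23 was read at 4.46 to 13.7 CPM in Dnmt3a-ADD and at 15 to 29.5 CPM in double mutant FGOs, and the groups did not overlap. Its log2 fold was 1.39 ± 0.21 (adjusted p = 1.88e-05), and 1.36 within classes (adjusted p = 0.0153). A copy annotated as Gm14633 matches 50.5% of the Rps23 transcript. Lsm8 was read at 0.986 to 2.76 CPM against 3.95 to 7.26 CPM, without overlap, with a log2 fold of 1.84 ± 0.28 (adjusted p = 1.75e-05) and 1.60 within classes (adjusted p = 0.035). In Dnmt3a-ADD the 2 genes were below wild type of its class, by -1.29 for Rps23 (adjusted p = 0.000633) and -1.07 for Lsm8 (adjusted p = 0.0365) on the log2 scale.

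The other genes of this set did not overlap between groups either. Gnas, which codes for the stimulatory G protein alpha subunit that keeps oocyte cAMP high and holds meiosis, was read at 5.6 to 9.06 CPM against 14 to 19 CPM, a log2 fold of 1.03 ± 0.15 (adjusted p = 1.28e-05). Wild-type Gnas was 11.8 to 18.5 CPM under 80% and 9.4 to 14.7 CPM at or above it, and the within-class difference was 0.64 (adjusted p = 0.0759). The gene overlaps the opposite-strand Nespas, and no source used here says that strand was kept, so their reads cannot be told apart. Nudt21, a subunit of the cleavage factor that selects polyadenylation sites, had a log2 fold of 1.41 ± 0.23 (adjusted p = 3.44e-05) and 0.96 within classes (adjusted p = 0.135). The snoRNA gene Gm25848, inside Fbxo45, and the miRNA-annotated Gm23935 had log2 folds of 1.42 and 1.07 (adjusted p = 7.91e-06 and 1.28e-05). Within classes they were 0.93 and 0.57 (adjusted p = 0.0507 and 0.0563). Gm23935 shares sequence with 3 other annotated genes.

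Cxadr, Cdc42ep4, Klhl21 and Spcs3 had the largest fold changes among genes called higher with a mean of at least 10 CPM in the double mutant, a limit that the higher group alone had to meet. Cxadr, a cell adhesion receptor, was read at 2.14 to 9.35 CPM in Dnmt3a-ADD and at 3.31 to 78.6 CPM (median 27.2) in double mutant FGOs. The ranges overlapped, and the log2 fold was 3.14 ± 0.74 (adjusted p = 0.00171). In wild type Cxadr reached 64.3 CPM under 80% and 7.8 CPM at or above it, and the within-class log2 difference was 0.13 (adjusted p = 0.971). Cdc42ep4, Klhl21 and Spcs3 had log2 folds of 2.69, 2.62 and 2.46, overlapping ranges, and within-class differences of 0.39, 0.33 and 0.57, none of which passed. Emx2, a homeobox gene named after its values were seen, was read at 1.92 to 14.4 CPM against 13.3 to 35.6 CPM, and its log2 fold of 1.78 (adjusted p = 0.00771) was 2.97 within classes (adjusted p = 0.0235).

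Gm42887 had the smallest p among the genes called lower. This unclassified transcript on chromosome 5 (69503842 to 69504960, minus strand) was read at 8.09 to 13.1 CPM in Dnmt3a-ADD and at 0.465 to 1.9 CPM in double mutant FGOs. The groups lay far apart, with a log2 fold of -3.13 ± 0.35 (adjusted p = 1.38e-07) and -2.54 within classes (adjusted p = 0.00229). Dnmt3L-ADD FGOs held 8.44 to 13.2 CPM of Gm42887, while wild-type FGOs under 80% held 1.02 to 2.43 CPM and those at or above it 0.919 to 8.24 CPM. Gm45663 on chromosome 8 had the same order, at 25 to 37.3 CPM in Dnmt3a-ADD, 24.8 to 36.7 CPM in Dnmt3L-ADD and 11.2 to 18.4 CPM in double mutant FGOs. Its log2 fold was -1.07 ± 0.14 (adjusted p = 1.62e-06), and -0.91 within classes (adjusted p = 0.00766). Both transcripts share most of their sequence with other annotated genes, 9 for Gm42887 and 10 for Gm45663, Gm37110 among them for each, and their reads may come from several loci. Gm16070, antisense to Crispld1, was read at 1.68 to 3.38 CPM against 0.136 to 0.602 CPM (log2 fold -2.72, adjusted p = 9.24e-06), and -1.37 within classes (adjusted p = 0.128).

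Dpy19l4, a C-mannosyltransferase family gene named after its values were seen, stood apart in Dnmt3a-ADD FGOs. It was read at 59.1 to 83 CPM in Dnmt3a-ADD, 35.5 to 52.7 CPM in the double mutant, 33.1 to 45.8 CPM in Dnmt3L-ADD and 36.8 to 52.7 CPM over both wild-type classes. No Dnmt3a-ADD value overlapped any other group, and 3.54% of all genes were lower without overlap between the 2 mutants. The log2 fold of double mutant over Dnmt3a-ADD was -0.65 ± 0.08 (adjusted p = 2.29e-07), and the within-class difference -0.70 (adjusted p = 0.00044). The double mutant and wild type under 80% differed by 0.02 (adjusted p = 0.953), and Dnmt3a-ADD and wild type at or above 80% by 0.72 (adjusted p = 3.09e-07).

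Several lower genes are known from ovarian somatic cells and were read at low levels. Aldh1a1, an enzyme of retinoic acid synthesis, was read at 2.93 to 23.2 CPM (median 5.94) in Dnmt3a-ADD and at 0.204 to 0.625 CPM (median 0.447) in double mutant FGOs. The groups did not overlap, with a log2 fold of -4.55 ± 0.57 (adjusted p = 1.08e-06), and -4.45 within classes (adjusted p = 0.000645). In wild type Aldh1a1 ran from 1.94 to 33 CPM, and the double mutant lay below wild type of its class by a log2 of -4.59 (adjusted p = 4.22e-06). Hsd3b1, an enzyme that makes progesterone, was read at 3.03 to 24.3 CPM against 0.408 to 2.15 CPM without overlap, a log2 fold of -2.93 ± 0.49 (adjusted p = 5.64e-05) and -2.42 within classes (adjusted p = 0.0466). Akr1cl was read at 7.04 to 57.7 CPM in Dnmt3a-ADD and at 3.12 to 4.8 CPM in double mutant FGOs (log2 fold -2.15, adjusted p = 7.79e-05; -2.16 within classes, adjusted p = 0.0071).

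Fibrillar collagen and Xist reads were nearly absent from double mutant FGOs. Col3a1 summed to 597 counts over the 8 Dnmt3a-ADD libraries and to 2 counts over the 8 double mutant libraries, with 7 of the latter at 0, a CPM ratio of 279 (95% interval 76.9 to 2309, counting error only). Col1a2 summed to 721 and 4 counts, a ratio of 168 (65.5 to 620). Xist, the RNA of X inactivation, summed to 4222 and 10 counts, a ratio of 394.5 (214 to 823). Dnmt3a-ADD replicate 8 alone held 61.3% of the Col3a1, 66% of the Col1a2 and 69.5% of the Xist counts of its group, and Xist was at 0 in another library. Without replicate 8, left out after the data were seen, the ratios were 126 (34.6 to 1050) for Col3a1, 67.0 (25.9 to 248) for Col1a2 and 141 (76.5 to 295) for Xist. Xist ran from 11.6 to 89 CPM in wild type under 80% and from 0 to 1.89 CPM at or above it.

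By list, 7 of 20 granulosa and cumulus markers, 5 of 14 theca and steroidogenic markers and 7 of 15 stroma and smooth muscle markers were called lower over 2-fold, and none of the 3 lists had a member called higher (1.48% and 4.38% of all genes). Their median log2 folds were -0.73, -0.87 and -0.95, and -0.13, -0.76 and -0.33 when the 16 libraries were fitted alone. Within classes 0 of 20, 3 of 14 and 2 of 15 members were lower by the adjusted p (123 of all 15726 genes), with medians of -0.51, -1.03 and -0.39. Of 6 tested endothelium, blood and immune markers none was called. By the adjusted p alone 1 was higher and 3 were lower (16.7% and 50%, against 16% and 14.9% of all genes). Among the lower were Pecam1 (log2 -0.58, adjusted p = 0.000115) and Tek (log2 -0.41, adjusted p = 0.00605), which double mutant libraries held at medians of 61.7 and 23.6 CPM. Within classes Tek changed sign, at 0.04 (adjusted p = 0.933), and Pecam1 was at -0.31 (adjusted p = 0.235). Cyp11a1, the first enzyme of steroid synthesis, was read at 1.21 to 13 CPM against 0.408 to 1.6 CPM, overlapping, with a log2 fold of -2.69 (adjusted p = 0.000529). The gap junction gene Gja1 (log2 -1.92), the inhibin subunit Inha (log2 -1.57) and the activin binder Fst (log2 -1.68) were lower with adjusted p of 0.000798, 0.00287 and 0.00493. Within classes Cyp11a1, Gja1, Inha and Fst differed by -1.63, -1.74, -1.03 and -1.74, and none passed (adjusted p = 0.301, 0.121, 0.407 and 0.17). Clu, an extracellular chaperone, summed to 419 counts in Dnmt3a-ADD and 28 in double mutant FGOs. Col1a1 and Vim summed to 247 and 138 against 20 and 14 counts, with 67.6% of the Dnmt3a-ADD counts of Col1a1 in replicate 8, and the theca-list members Ephx1 and Mgarp to 85 and 96 against 4 and 3.

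**Figure D3:**
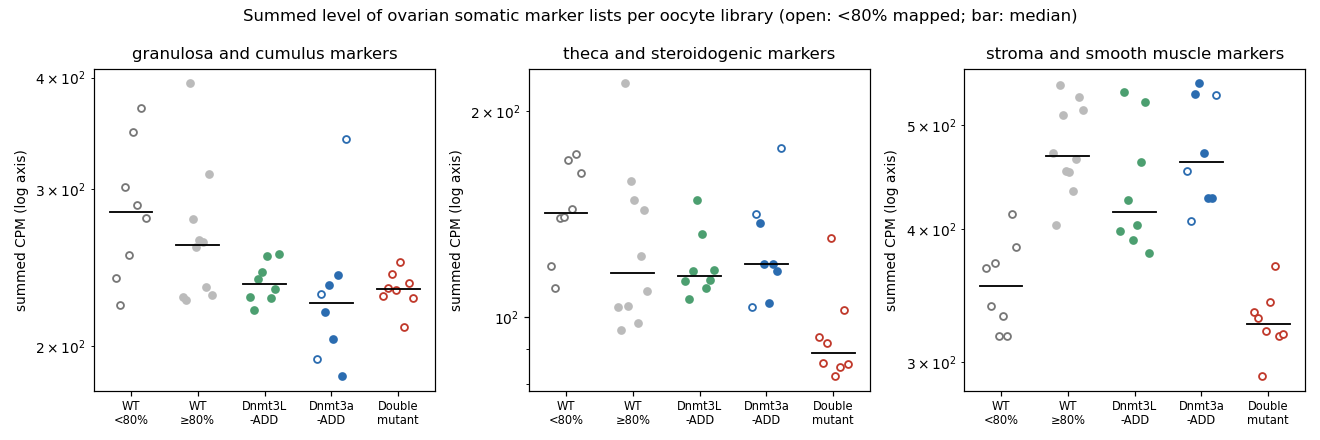
Summed CPM (log axis) of 3 ovarian somatic marker lists in each oocyte library, with bars at the medians and open points for libraries under 80% of reads mapped. Stroma markers of the double mutant lie at 291 to 369, below the 407 to 548 of Dnmt3a-ADD, theca markers lie at 82.1 to 131 against 104 to 177, and granulosa markers overlap. Stroma markers of wild type lie at 317 to 413 under 80% and at 403 to 546 at or above it.

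Granulosa and cumulus markers summed to 185 to 342 CPM in Dnmt3a-ADD and 209.9 to 249 in double mutant FGOs, theca markers to 104 to 177 and 82.1 to 131, and stroma markers to 407 to 548 and 291 to 369. Each sum came mostly from 2 members, whose source in oocyte or somatic RNA was not tested: Nr5a2 and Esr2 held 70.2% of the granulosa sum, Aldh1a2 and Scarb1 60.4% of the theca sum, and Myh11 and Col4a1 87.2% of the stroma sum. Members at 0 in every double mutant library numbered 1 of 22, 1 of 16 and 2 of 20. Without Dnmt3a-ADD replicates 3 and 8, which were left out after the data were seen, 605 genes were higher and 111 lower, and 5, 4 and 4 members of the 3 lists were called lower. The part of cells or RNA adhering to the oocytes in these differences was not tested, and fewer adhering cells cannot be told apart from less RNA per cell.

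**Figure D4:**
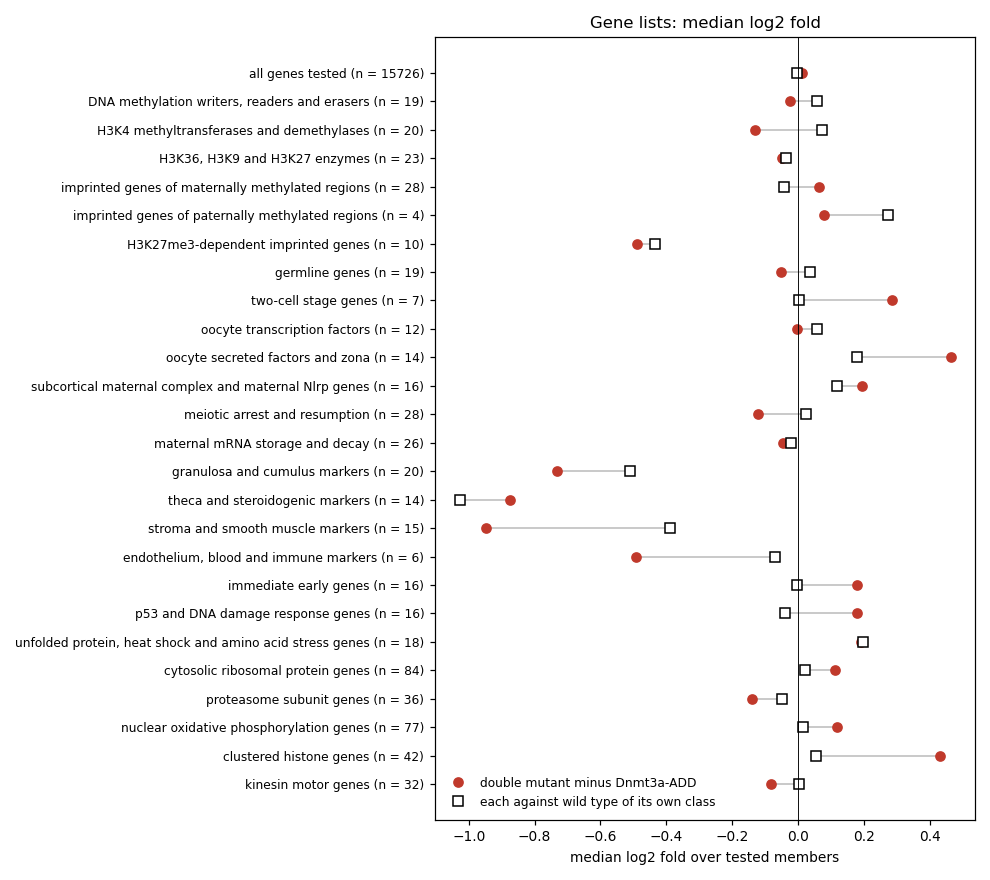
Median log2 fold over the tested members of each gene list, as double mutant over Dnmt3a-ADD (red) and with each mutant first set against wild-type libraries of its own class of mapped reads (open squares), n being the tested members. In red, zona and secreted factors stand highest at 0.46, and the theca, stroma and granulosa lists stand lowest.

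Many imprinted genes depend on methylation set in the oocyte. Of 28 tested genes of maternally methylated regions 3 were called higher and 1 lower (10.7% and 3.57%, against 4.38% and 1.48% of all genes). Peg10, a retrotransposon-derived gene, was read at 7.48 to 19.8 CPM in Dnmt3a-ADD and 12.9 to 71.5 CPM (median 48.5) in double mutant FGOs, overlapping, with a log2 fold of 1.74 ± 0.39 (adjusted p = 0.000985). The double mutant exceeded wild type of its class for Peg10 (log2 1.48, adjusted p = 0.00947), while the within-class difference was 0.43 (adjusted p = 0.774). Impact was higher by 1.10 (adjusted p = 0.0213) and by 0.06 within classes (adjusted p = 0.978). Gnas is the other higher member. Nap1l5 summed to 159 counts in Dnmt3a-ADD and 29 in double mutant FGOs, a CPM ratio of 5.12 (3.43 to 7.9), with a log2 fold of -2.44 ± 0.57 (adjusted p = 0.00146) and -2.75 within classes (adjusted p = 0.0573).

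None of the 4 tested genes of paternally methylated regions passed, and the noncoding RNAs Meg3 and Rian had log2 folds of -0.24 and -0.04 (adjusted p = 0.483 and 0.941). Of 10 tested genes imprinted through H3K27me3, Xist, Runx1 and Smoc1 were called lower (30%, against 1.48% of all genes). Runx1 reached 8.28 CPM in a single Dnmt3a-ADD library, replicate 8, against a group median of 0.857 CPM. Smoc1 summed to 77 counts in Dnmt3a-ADD and 16 in double mutant FGOs. The list's median log2 fold was -0.49, and 0.07 when the 16 libraries were fitted alone. Without replicates 3 and 8 of Dnmt3a-ADD, 1 of the 10 was called and the median was 0.05.

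Among chromatin enzymes, single members changed over 2-fold, and more of the histone enzymes were lower than higher by the adjusted p. Of 19 tested DNA methylation genes 1 was higher and 2 lower by the adjusted p, none over 2-fold, and Dnmt1, the maintenance methyltransferase, was read at a median of 3947 CPM against 3768 CPM (log2 -0.11, adjusted p = 0.225), with Tet3 at 3524 against 3617 CPM (log2 0.01, adjusted p = 0.87). Of 20 H3K4 enzymes 3 were higher and 7 lower (15% and 35%, against 16% and 14.9% of all genes), with the H3K4 demethylase Kdm5a called at a log2 of 1.43 (adjusted p = 0.00403) from 5.84 to 21.1 CPM against 11.4 to 42 CPM. Of 23 enzymes of H3K36, H3K9 and H3K27, 3 were higher and 8 lower (13% and 34.8%), and the H3K9 methyltransferase Ehmt2 was called at 1.19 (adjusted p = 0.00931). Within classes no member of the 2 histone enzyme lists passed in either direction, and the list medians were 0.07 and -0.04. Kdm5a and Ehmt2 differed there by 0.46 and 0.36 (adjusted p = 0.767 and 0.811).

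Clustered histone genes had a median log2 of 0.43 over 42 tested members, with 7 called higher and 2 lower (16.7% and 4.76%, against 4.38% and 1.48% of all genes). Hist1h4i was read at 6.27 to 11.1 CPM against 12.3 to 24.1 CPM, without overlap (log2 fold 1.22 ± 0.22, adjusted p = 0.000142), and Hist1h4b and Hist1h3g had log2 folds of 1.38 and 1.26. The linker histone gene Hist1h1b was lower by -1.93 (adjusted p = 0.00177). Within classes the list's median was 0.05, and the differences of these 4 genes were 0.29, 0.90, 0.87 and -1.38, none with an adjusted p under 0.05. Hist1h3g shares most of its sequence with 7 other annotated genes.

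The counts that follow are by the adjusted p, which 16% of all genes passed as higher and 14.9% as lower. Cytosolic ribosomal protein genes had 26 of 84 higher and 13 lower (31% and 15.5%) with a median of 0.11, and beside Rps23 the members Rpl9 (log2 1.48) and Rpl10l (log2 1.42) were called. Nuclear oxidative phosphorylation genes had 22 of 77 higher and 7 lower (28.6% and 9.09%), with Uqcrc1 of complex III called at 1.31 (adjusted p = 0.00804). Proteasome subunit genes had 3 of 36 higher and 12 lower (8.33% and 33.3%), with Psmd13 called at 1.37 (adjusted p = 0.00599). Kinesin motor genes had none of 32 higher and 8 lower (25%), with Kif3c called at -1.10 (adjusted p = 0.000484) from 1.48 to 3.33 CPM against 0.441 to 1.44 CPM. Within classes 2 of the 84 ribosomal genes were higher and 1 lower (78 and 123 of all 15726 genes). No oxidative phosphorylation, proteasome or kinesin gene passed there, Uqcrc1, Psmd13 and Kif3c included.

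Genes of meiotic arrest and resumption had 3 of 28 higher and 8 lower by the adjusted p (10.7% and 28.6%, against 16% and 14.9% of all genes), none over 2-fold. The spindle checkpoint kinase gene Bub1b differed by -0.21 (adjusted p = 0.198), and Wee2, the oocyte kinase that holds CDK1 inactive, by -0.20 (adjusted p = 0.0461). Genes of maternal mRNA storage and decay had 6 of 26 higher and 4 lower (23.1% and 15.4%), with the P-body helicase Ddx6 called at 1.24 (adjusted p = 0.00445) from 43.7 to 121 CPM against 77 to 268 CPM. Within classes no member of either list passed, and Ddx6 differed by 0.04 (adjusted p = 0.983).

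Of 16 immediate early genes 1 was called higher and 1 lower (6.25% each, against 4.38% and 1.48% of all genes). They were Ier2, higher (0.202 to 1.03 CPM against 1.2 to 7.31 CPM, without overlap, log2 2.16, adjusted p = 0.000145), and Jun, lower (37 counts against 6). The next counts are by the adjusted p (16% higher and 14.9% lower over all genes). Of 18 genes of the unfolded protein, heat shock and amino acid responses 6 were higher and 2 lower (33.3% and 11.1%), with Xbp1 called at 1.47 (adjusted p = 0.019). Of 16 p53 and DNA damage genes 3 were higher and 3 lower (18.8% each), none over 2-fold, with Chek1 at -0.21 (adjusted p = 0.0129) and Mdm2 at -0.27 (adjusted p = 0.00495). None of 7 tested genes of the 2-cell embryo passed, and the 2 most abundant, Sp110 and Tcstv1, had log2 differences of 0.15 and 0.28 (adjusted p = 0.0972 and 0.0583). Of 19 germline genes 5 were higher and 4 lower (26.3% and 21.1%), and the piRNA factor gene Piwil2 was called at 1.87 (adjusted p = 0.00354). Within classes 1 gene of the unfolded protein and heat shock list was higher and 1 germline gene lower (78 and 123 of all 15726 genes). No immediate early, p53 or 2-cell gene passed there.

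The effect of the Dnmt3L mutation was then compared between the Dnmt3a-ADD and the wild-type background. On wild type (8 Dnmt3L-ADD against 18 wild-type FGOs) 10 genes were higher and 93 lower over 2-fold (0.0636% and 0.591%). The 2 effects differed at 5601 genes (35.6%, adjusted p under 0.05, no minimum fold), in 3041 toward higher and 2560 toward lower on the Dnmt3a-ADD background. Of the 689 genes higher on Dnmt3a-ADD, 22 were lower on wild type (3.19% of the first list and 23.7% of the second) and none was higher. Of the 232 genes lower on Dnmt3a-ADD, 15 were also lower on wild type (6.47% and 16.1%) and 4 were higher (1.72% and 40%). The Dnmt3L-ADD libraries were all at or above 80% and the double mutant libraries all under it, so that the library class is confounded with this difference and cannot be told apart from the background. With the class as a covariate the count was 2226.

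The 3 genes with the smallest p toward higher were Gm25848, Atp6v0c and Tm2d1. Atp6v0c, of the proton channel of the vacuolar ATPase, was read at 9.24 to 17.1 CPM in Dnmt3a-ADD and 19.2 to 25.1 CPM in double mutant FGOs, without overlap, a log2 of 0.91 ± 0.12 (adjusted p = 3.12e-06). On wild type its log2 change was -0.76 (adjusted p = 2.03e-05), and the effects differed by 1.67 (adjusted p = 1.39e-09). Tm2d1, a membrane protein gene, rose by 0.48 ± 0.06 on Dnmt3a-ADD (40.6 to 53.4 CPM against 61.9 to 67.5 CPM) and fell by 0.28 on the log2 scale on wild type, a difference of 0.77 (adjusted p = 4.66e-09).

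Toward lower, Gm42887, Gm45663 and Srp54b had the smallest p. Gm42887 was higher by 2.23 on wild type (adjusted p = 4.2e-07) and lower by -3.13 on Dnmt3a-ADD, a difference of -5.36 (adjusted p = 2e-11). Gm45663 was higher by 0.93 and lower by -1.07. Srp54b, a signal recognition particle subunit gene that shares sequence with Srp54a and Srp54c, was read at 36.5 to 58.6 CPM against 25.9 to 31.8 CPM, without overlap. Its difference of effects was -1.10 (adjusted p = 1.39e-09). For Atp6v0c, Tm2d1 and Srp54b the within-class differences were 0.70, 0.36 and -0.53 (adjusted p = 0.0186, 0.0186 and 0.00492), and in each of them the double mutant lay within 0.08 of wild type of its class on the log2 scale.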

How the data were processed

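FGO libraries of 1 oocyte each were made with the SMART-Seq HT kit and sequenced on an Illumina instrument, and the authors aligned the reads to mm10 using STAR, then assigned them to genes (the labels name HTSeq, the study's methods also featureCounts, whose layout the files have). The deposited files hold raw read counts per gene for 42 FGO libraries, of which the 16 described here form the comparison. Groups came from the sample titles. A library's class (under or at least 80% of reads mapped) came from the study's read statistics. The members and lists were chosen with earlier results of these data known. Counts were fitted with edgeR 4.0.16 in R 4.3.3 (TMM scaling, filterByExpr requiring 10 counts, 1 coefficient per genotype over 42 libraries, and a quasi-likelihood test), with Benjamini-Hochberg adjustment over 15726 genes. A gene was called at an adjusted p under 0.05 and over 2-fold. CPM are TMM-scaled, and summed list levels use raw totals. On simulated counts (15470 genes) the test recovered 74.2% of 97 2-fold and 95.9% of 98 4-fold changes in this comparison. Recovery meant an adjusted p under 0.05 and the right sign, without the 2-fold limit of a call. By the same adjusted p, 13 of 15275 unchanged genes passed. The simulated libraries were drawn independently around 1 mean per gene, with no difference between library classes and no shared mothers. These values therefore do not give the error rate of the calls in the real libraries. Named genes were the 2 targets, the 8 called genes of lowest p and the 4 of largest change at a mean of at least 10 CPM in each direction, the 3 of lowest p in each direction of the difference of effects, and up to 4 called members per list, or else the 2 most abundant. Intervals of count ratios are exact and cover counting error only. DESeq2 1.42.0 was an alternative. No 2 libraries of a group agreed within sampling noise. Tables of embryo samples (14 columns) and the MII oocyte counts were not used here.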

Additional observations from a re-analysis of the deposited data

Results flagged for a closer look

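For 65 of the 80 genes named here the 2 effects of the Dnmt3L mutation, on Dnmt3a-ADD and on wild type, differed by the adjusted p. Over all 15726 genes 35.6% did so. Many of the 80 were picked by their p in double mutant against Dnmt3a-ADD, which is part of this difference, or by the difference itself. Their share is therefore not a result about them. As in the report, all double mutant libraries were under 80% of reads mapped and all Dnmt3L-ADD libraries at or above it, and the part of the class in these values was not tested gene by gene. Toward higher on Dnmt3a-ADD, the log2 differences were largest for Cxadr 5.09, Gm6682 4.69, Cdc42ep4 4.00, Klhl21 3.85, Spcs3 3.70, Emx2 3.15, Ier2 2.95, Gm25848 2.82, Lsm8 2.79 and Piwil2 2.73. They were next Rps23 2.39, Rpl9 2.37, Xbp1 2.30, Psmd13 2.24, Rpl10l 2.22, Tbpl2 2.08, Nudt21 2.07, Hist1h4b 2.02, Kdm5a 1.98 and Uqcrc1 1.93. Further values toward higher were Ddx6 1.93, Hist1h4i 1.81, Ehmt2 1.78, Atp6v0c 1.67, Tuba1c 1.66, Gm23935 1.57, Gnas 1.53, Peg10 1.41, Zp2 1.29 and Impact 1.23. The smaller ones were Hist1h3g 1.22, Nlrp14 0.92, Bmp15 0.86, Zp3 0.84, Zp1 0.78, Tm2d1 0.77, Gdf9 0.63, Tcstv1 0.39, Sp110 0.35 and Zbed3 0.32. Tle6 had 0.19. Toward lower the log2 differences were Col3a1 -6.75, Col1a2 -5.93, Xist -5.37, Gm42887 -5.36, Mgarp -4.19, Gm16070 -3.84, Col1a1 -3.27, Aldh1a1 -2.98, Nap1l5 -2.31 and Clu -2.27. Next came Runx1 -2.17, Cyp11a1 -2.08, Hist1h1b -2.05, Gm45663 -2.003, Hsd3b1 -1.80, Akr1cl -1.16, Srp54b -1.10, Pou5f1 -0.92, Pecam1 -0.71 and Tek -0.61. Further values toward lower were Dpy19l4 -0.57, Mdm2 -0.45, Chek1 -0.32 and Wee2 -0.30.

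Dixon's test marked 22 of 164 groups of 8 values with a lone extreme library. Its limit, which chance alone passes in about 1 in 20 groups, holds for normal values. The CPM were not put on a log scale and some were near 0, so that rate does not apply to them. Dnmt3a-ADD replicate 8 was the lone highest, in CPM, for Col3a1 (20.6), Col1a2 (26.8), Xist (165), Akr1cl (57.7), Meg3 (13.1), Rian (10.4), Runx1 (8.28) and Col1a1 (9.41). Dnmt3a-ADD replicate 4 was the lone highest for Cxadr (9.35), Cdc42ep4 (6.16), Spcs3 (15.2), Impact (12), Piwil2 (13.045), Ddx6 (121) and Psmd13 (8.63), and replicate 7 for Xbp1 (2.24). In the double mutant the lone values were Gnas at 19 in replicate 4, Col3a1 at 0.147 in replicate 2, Clu at 0.938 in replicate 7, Srp54b at 25.9 in replicate 4, Nap1l5 at 0.979 in replicate 1 and Bmp15 at 1970 in replicate 4.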

How the results depend on the processing

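The count of 921 called genes was 912 with RLE and 917 with upper-quartile normalization, 964 with DESeq2, 965 with the exact test and 917 with robust dispersions, and the direction and side of the threshold of all 80 named genes were kept under these 5. Fitted on the 16 libraries only, 699 genes were called, 90 of them lower. Without a filter 1750 were called (854 lower), at a mean of at least 1 CPM 121 were lower, and without a minimum fold 4861 passed (2511 higher, 2350 lower). With libraries under 80% only 121 were lower. With the class as a covariate 406 were called, 168 higher and 238 lower. The following were chosen after the data were seen: without Dnmt3a-ADD replicates 3 and 8, 111 were lower; with the wild-type class difference subtracted 186 were called, 34 higher and 152 lower; within classes 86, 21 higher and 65 lower; against the 5 Dnmt3a-ADD libraries at or above 80%, 148 were lower. Leaving out single libraries gave 706 to 1217 calls, 494 to 950 higher and 152 to 267 lower, the lowest count of lower genes without Dnmt3a-ADD replicate 8. The difference of effects gave 5601 genes, 1624 over 2-fold (1384 higher, 240 lower), 2226 with the class covariate (950 higher, 1276 lower), and 4926 to 5905 without single libraries (2785 to 3438 higher, 2141 to 2500 lower).

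Shared replicate numbers do not pair the libraries: of 8 same-numbered pairs 3 correlated over 0.1 in their deviations (r from -0.03 to 0.19), and 2 libraries correlated best with their own number. With the replicate block 699 genes were called, 602 higher and 97 lower, and 6491 in the difference of effects.

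List medians on the 16 libraries were 0.069 for H3K27me3 imprints, -0.13 for granulosa, -0.76 for theca and -0.33 for stroma. At a mean of at least 1 CPM they were -0.055 for H3K27me3 imprints, -0.52 for granulosa, -0.64 for stroma, 0.27 for p53 genes and 0.12 for stress genes. With libraries under 80% only they were -0.041 for H3K27me3 imprints, 0.37 for zona, -0.86 for granulosa, -0.59 for theca, -0.49 for stroma, 0.30 for immediate early genes and -0.0083 for kinesins. Without replicates 3 and 8 they were 0.30 for paternal imprints, 0.053 for H3K27me3 imprints, -0.36 for granulosa and -0.63 for stroma. Within classes they were 0.056 for DNA methylation, 0.074 for H3K4 enzymes, 0.27 for paternal imprints, 0.0015 for 2-cell genes, 0.18 for zona, 0.12 for the maternal complex, 0.024 for meiotic genes, -0.51 for granulosa, -1.03 for theca, -0.39 for stroma, -0.069 for endothelium, -0.0049 for immediate early genes, -0.041 for p53 genes, 0.021 for ribosomal and 0.015 for oxidative phosphorylation genes, 0.054 for histones and 0.0016 for kinesins. The cause of these shifts was not tested.

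The difference in detected genes turned to 52.1 at a minimum of 10 counts and 55.7 with libraries under 80% only, where that in total counts was 333870. Without single libraries they ran from -436 to 499 and from -1780600 to -400790. Among genes below the threshold, Tet3 turned to -0.095 with libraries under 80% and -0.039 with the class covariate, Dnmt3a to 0.016 with the covariate and 0.12 within classes, Dnmt3l to 0.063 and 0.32, and within classes Dnmt1 was 0.16, Bub1b 0.23 and Meg3 0.38. Tek, which passed as lower, turned to 0.043 within classes. Rian turned to 0.23 with the block, 0.64 without replicates 3 and 8 and 0.26 against the 5 libraries, and Meg3 to 0.20 without replicates 3 and 8. Without single libraries Tet3 ran from -0.0029 to 0.054, Meg3 from -0.33 to 0.063 and Rian from -0.22 to 0.51. Of 71 named genes that passed, 21 passed within classes. Over all 15726 genes 78 passed as higher and 123 as lower within classes, against 2511 and 2350 in the main comparison. The within-class test left out 3 Dnmt3a-ADD libraries and added the spread of 2 wild-type groups. A gene that did not pass it can therefore have kept its estimate. The mitochondrial share could not be tested.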

Other observations

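By annotation class, 4.12% of 13046 tested protein-coding genes were called higher in double mutant FGOs and 1.3% lower. Of 700 pseudogenes 5% were higher and 3.57% lower, and of 153 small RNA genes 5.23% were higher and 5.88% lower. Of 1270 other noncoding genes 5.91% were higher and 1.65% lower. Reads of pseudogenes and small RNA genes can be shared with their parent or host genes, and the part of this in the shares was not tested.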
